A study of Homo sapiens with 5 samples.

Results

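Oxidative phosphorylation genes were taken from the arrays by their platform symbols. Symbols starting NDUFA, NDUFB, NDUFC, NDUFS, NDUFV, SDHA to SDHD, UQCR, COX4 to COX8 or ATP5 were kept, together with CYC1, and the assembly factor symbols starting NDUFAF and SDHAF were left out. The rule found 79 genes among the 11041 measured, carried by 106 of 19105 probes. Of these, 71 encode subunits of the 5 complexes and 8 do not. The 8 comprise 6 pseudogenes, the ATP synthase inhibitor ATP5IF1 and the supercomplex factor COX7A2L. Complex I contributed 32 genes, complex II 7, complex III 10, complex IV 12 and complex V 18. No kept probe represented NDUFS1, NDUFS6, NDUFA4, NDUFB4, NDUFC2, SDHB, UQCRFS1 or ATP5MK, which were therefore not analysed here.

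Oxidative phosphorylation is the process by which mitochondria make most of their ATP. Complexes I and II pass electrons from NADH and succinate to coenzyme Q, complex III passes them on to cytochrome c, and complex IV hands them to oxygen. Complexes I, III and IV pump protons across the inner membrane, and complex V, the ATP synthase, uses the returning protons to make ATP. The subunits studied here are encoded in the nucleus, while a small core set is encoded by mitochondrial DNA.

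The study used Illumina bead arrays to measure RNA of K562 cells, an established human line of chronic myeloid leukaemia with erythroid features. Stable lines carried a Tet-on short hairpin RNA against JMJD1B, a histone demethylase that acts on lysine 9 of histone H3 (sh-JMJD1B, 3 arrays), or a control hairpin (sh-CTL, 2 arrays). Doxycycline at 1 µg/ml for 48 h was given to both groups, so no array holds cells without the drug or without a hairpin. The series asks which genes depend on JMJD1B, and the comparison here asks how respiratory chain transcripts differ between the groups. JMJD1B has no value here, so the groups rest on their labels alone. The labels name neither the hairpin sequences nor the number of lines or clones, and do not say that replicates were separate cultures. The p-values therefore measure only the spread between these arrays, which may be technical.

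Each array detected 18230 to 18596 of the labelled probes, with median signals of 455.6 to 498.6. Levels below are log2 of the signal plus 16 after quantile normalization, and a difference is the mean of sh-JMJD1B minus the mean of sh-CTL on that scale, ± its standard error. Of 12 erythroid and megakaryocytic genes that mark K562 cells, 10 had a kept probe, among them GATA1, TAL1, KLF1 and HBG1, and all 10 were detected on all 5 arrays. Of these 10, 5 differences were positive and 5 negative, with a median of 0.00. HBZ, an embryonic globin, fell by 0.56 and was the only one called. The other negative ones were HBE1 at -0.15, TFRC at -0.11, TAL1 at -0.02 and HBG1 at -0.00. The positive ones were GATA1 at 0.11, KLF1 at 0.08, NFE2 at 0.07, and HBG2 and EPOR at 0.01 each. HBG1 and HBG2 were very bright, at levels of 15.97 to 16.02. Of 20 markers of other cell types, 12 had a kept probe. In the lymphocyte list, with 3 of 6 genes measured, the summed deposited signal was 3210 to 3300 in sh-JMJD1B and 2332 to 2611 in sh-CTL. CD3D, a subunit of the T cell receptor complex, rose by 0.38 there, while CD2 gave -0.18 and CD79A -0.04, so the higher sum came from CD3D alone. For the epithelial, fibroblast and endothelial list, with 4 of 8 genes measured, the sums were 5084 to 5857 and 5991 to 6065. EPCAM, an epithelial adhesion molecule, fell by 0.51 on its brightest probe. Its other probes gave -0.50 and -0.22, the last with overlapping groups. KRT19 gave 0.04, KRT18 0.10 and DCN -0.02. The monocyte and macrophage list, with 5 of 6 genes measured, summed to 3534 to 3947 and 3445 to 3700. In it LYZ gave -0.22, CD14 -0.14 and ITGAM -0.05, while FCGR3A gave 0.12 and CD68 0.01, and none was called. CD2 was detected on 4 of the 5 arrays and KRT18 on 2, and the other 10 measured markers on all 5. The part of other cell types in the values below was not tested.

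Promoter sequence was examined because respiratory genes share a small set of binding motifs. NRF1 (GCGCATGCG), ETS family factors such as GABP (CCGGAAG) and YY1 (AAGATGGCG) bind many nuclear promoters of this pathway, and NF-Y binds CCAAT. RefSeq windows running from 250 bases before to 50 after a gene's start (GRCh38.p14) were at hand for 61 members, with 73 windows. Exact matches were sought on both strands. The NRF1 letters used here were chosen after a longer form had been searched. They were in 9 of these windows, or 12.3%, against 3.18% of the windows of all measured genes. In 3 of the 9 the letters match on both strands, shifted by 1 base, which was so in 4.11% of member windows against 1.95%. The ETS letters were in 19 windows, 26.0% against 17.0%. The YY1 letters were in 9 windows of 8 genes, 12.3% against 3.41%, and 2 of these 9 are overlapping windows of ATP5PF. In every gene but ATP5PF the match lies 11 to 26 bases after the annotated start, on the gene's own strand. The letters hold ATG, the start codon, and the part of protein starts in this share was not tested. The CCAAT letters were in 26 windows, 35.6% against 35.5%. Over all 35116 windows the shares were 1.92% for NRF1, 10.3% for ETS, 1.75% for YY1 and 34.6% for CCAAT. The matches describe the letters only and do not show binding.

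The 3 NRF1 sites that match on both strands are printed 5′ to 3′ along the gene, as the fullest copies among the members, with the match on the printed strand in capitals.
NDUFA8, chr9:122159764-122159793, minus strand: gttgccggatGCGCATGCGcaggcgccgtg
ATP5F1C, chr10:7788145-7788174, plus strand: gggagcttcgGCGCATGCGcgctgaggcct
SDHD, chr11:112086753-112086782, plus strand: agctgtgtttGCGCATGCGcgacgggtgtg
Of the YY1 matches, those of UQCRC1 and NDUFB8 are shown because both genes are described below, and both lie just after the annotated start.
UQCRC1, chr3:48609604-48609633, minus strand: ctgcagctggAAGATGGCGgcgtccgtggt
NDUFB8, chr10:100529835-100529864, minus strand: gaagaaggtgAAGATGGCGgtggccagggc
The 250 bases before the start of ATP5MC1 are shown because it was the member that rose, and they hold 4 matches to CCAAT, in capitals.
ATP5MC1, chr17:48892537-48892786, plus strand: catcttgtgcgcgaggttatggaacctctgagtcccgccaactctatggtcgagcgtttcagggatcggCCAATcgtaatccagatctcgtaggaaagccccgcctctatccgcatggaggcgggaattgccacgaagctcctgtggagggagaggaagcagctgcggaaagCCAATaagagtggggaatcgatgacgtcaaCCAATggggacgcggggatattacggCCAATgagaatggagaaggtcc

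Nearly all respiratory chain transcripts in sh-JMJD1B lay within a narrow range of the control. At an adjusted p under 0.05 (limma, Benjamini-Hochberg over all probes), 1 member rose and 1 fell. These were ATP5MC1, a subunit of the ATP synthase c-ring, and SDHAP2, a pseudogene of complex II. By probe, 1 of 106 was higher and 1 lower, against 2.35% and 2.72% of all probes. By gene, the calls amount to 1.27% of members in each direction, against 2.56% of all genes higher and 3.7% lower. The share called among the members was thus below that of all genes in both directions, on a count of 1 each. Positive differences were seen in 53 members and negative ones in 26, so 67.1% were positive against 46.8% of all genes. The median difference was 0.04 for members, with a middle range of -0.02 to 0.09, and -0.01 for all genes, with a middle range of -0.09 to 0.07. Members spanned -0.37 to 0.26, while all genes spanned -1.05 to 2.14.

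At an unadjusted p under 0.05 the test took 7 members as higher, or 8.86% against 10.1% of all genes, and 3 as lower, or 3.8% against 13.9%. Together these are 12.7% of members against 24.0% of all genes. All 3 sh-JMJD1B arrays lay above both controls for 20 members, or 25.3%, against 17.9% of all genes. They lay below both controls for 10 members, or 12.7%, against 23.9%, counting NDUFB1, which is given no direction below. For the other 49 the groups overlapped. The 95% interval of the difference lay within 0.3 of 0, on the log2 scale, for 68 members, or 86.1%, against 74.5% of all genes. For the 71 subunit genes alone this held in 64, and over all 71 the intervals reached from -0.32 to 0.40. Members were bright, with 68 of 79 at 10 or more times the pooled background signal of 126.6 on average, against 3765 of all 11041 genes. Detection on all 5 arrays held for 76 members and for 10197 of all genes. The median signal was 6730 for members and 662 for all genes, so the shares above set members beside mostly dimmer genes. The part of brightness in those shares was not tested.

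**Figure D1:**
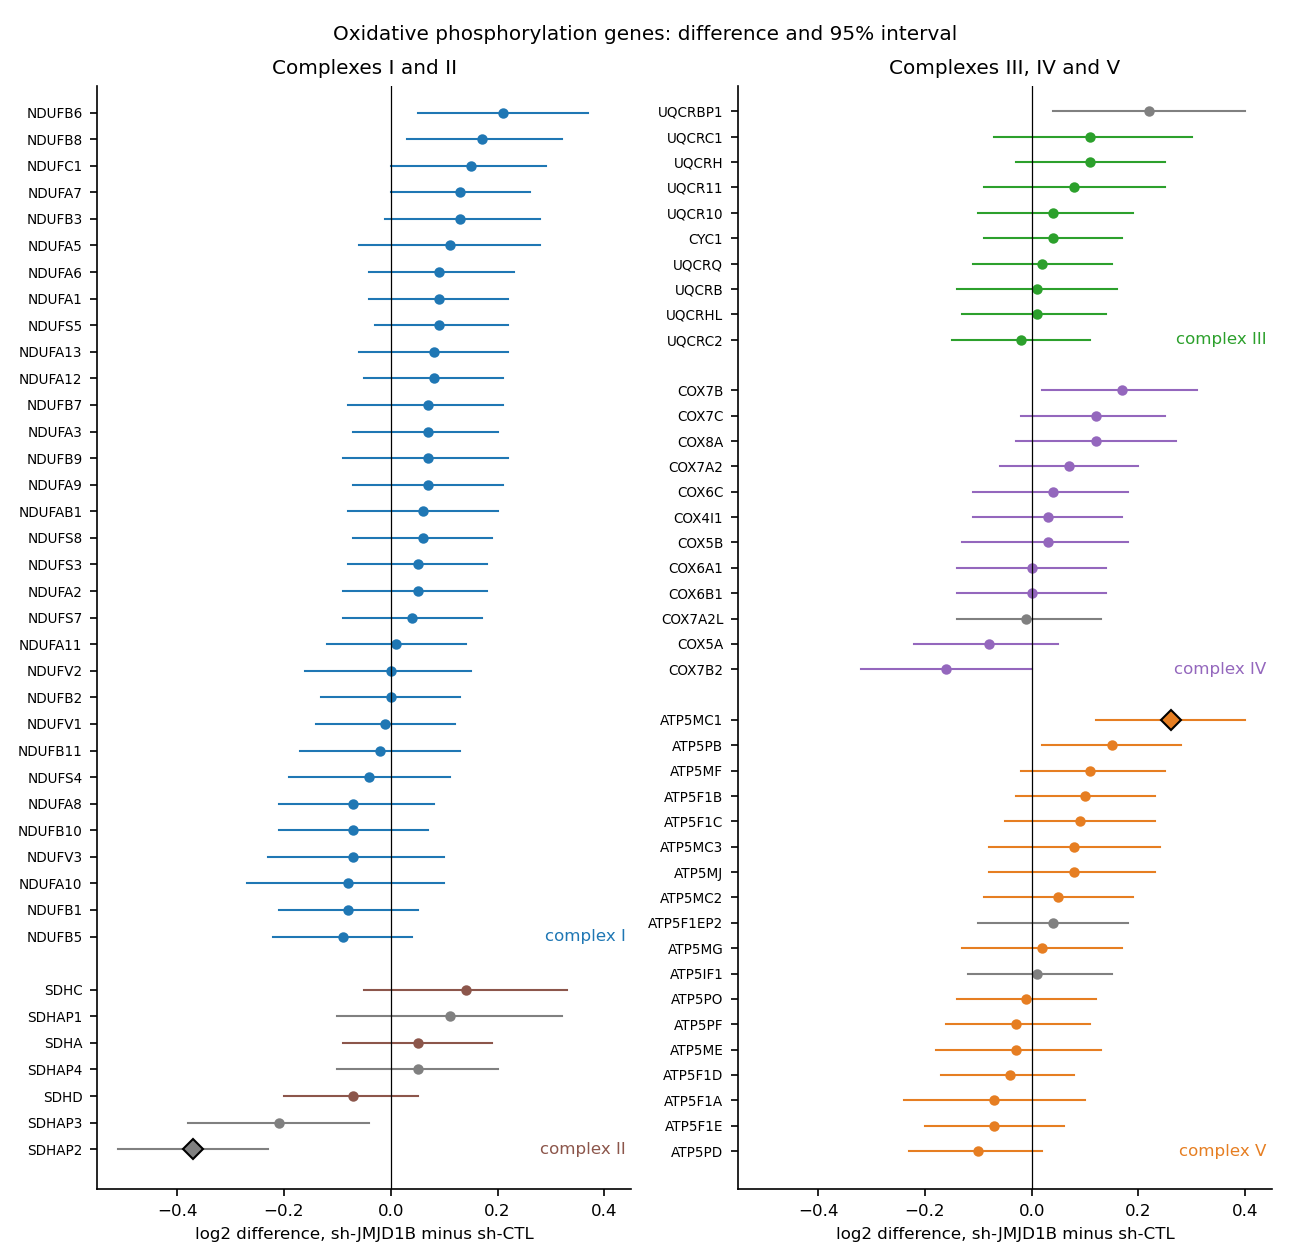
Log2 difference (sh-JMJD1B minus sh-CTL) of each of the 79 members with its 95% confidence interval, grouped by complex. ATP5MC1 and SDHAP2 are the called members, and most intervals include 0.

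Complex I, the NADH dehydrogenase, had 32 measured members and none was called in limma, against 2.56% of all genes higher and 3.7% lower. At an unadjusted p under 0.05, 3 were higher and 0 lower. The 3 are 9.38% of the 32, near the 10.1% of all genes higher, while 13.9% of all genes were lower. The median of the 32 was 0.06, between -0.09 and 0.21, with 21 positive differences. The matrix arm, which takes electrons from NADH, had 13 members with a median of 0.05. Its 5 measured core subunits, which carry the flavin or the iron-sulfur clusters or help hold them, lay between -0.01 and 0.06. All 5 had overlapping groups, as had 6423 of all 11041 genes. The 5 were NDUFV1 at -0.01, NDUFV2 at -0.00, NDUFS7 at 0.04, NDUFS3 at 0.05 and NDUFS8 at 0.06. The 19 accessory members of the membrane arm, which pumps protons, had a median of 0.07. In 7 of them, or 36.8% against 17.9% of all genes, every sh-JMJD1B array lay above both controls. In 2, NDUFB5 and NDUFB1, or 10.5% against 23.9%, every one lay below. NDUFB1 was detected in the controls only and its deposited signals overlapped, so its place in this count gives no direction.

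NDUFB6, an accessory subunit of the membrane arm, had the highest difference in complex I. On its brighter probe the levels were 11.48, 11.59 and 11.63 in sh-JMJD1B and 11.43 and 11.29 in sh-CTL. All knockdown arrays were above both controls, though the closest pair was 0.05 apart. The difference was 0.21 ± 0.07, with an adjusted p of 0.13 in limma. On its other probe the levels were 10.89, 10.98 and 10.95 against 10.75 and 10.66, with no overlap and a wider gap. That difference was 0.23 ± 0.06, with an adjusted p of 0.065 in limma. The second probe passed the threshold in 4 of the 17 alternative settings, which were median scaling, no normalization, an offset of 50 and a trended robust variance, and in none that left out an array. The brighter probe passed in 1 of 17, without normalization, and its difference was 0.13 with an adjusted p of 0.43 without sh-CTL replicate 2.

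NDUFB8, also of the membrane arm, read 13.26, 13.22 and 13.34 in sh-JMJD1B and 13.15 and 13.05 in sh-CTL. The groups did not overlap, and the difference of 0.17 ± 0.06 had an adjusted p of 0.16 in limma. NDUFC1, a small membrane arm subunit, read 12.39, 12.32 and 12.43 against 12.19 and 12.28, at 0.15 ± 0.06 with an adjusted p of 0.22 in limma. Its groups did not overlap either. At the other end, NDUFB5 read 14.36, 14.38 and 14.39 against 14.43 and 14.50, all knockdown arrays lying below both controls at -0.09 ± 0.06. The NDUFB5 difference stayed negative with median scaling (-0.04) and cyclic loess (-0.06). It was 0.02 without normalization, where the median of all genes was 0.06 and the deposited NDUFB5 signals overlapped. NDUFA10 gave -0.08 on both of its probes, with standard errors of 0.08 and 0.06.

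NDUFB1, another membrane arm subunit, was near the limit of detection. Its detection p was 0.079, 0.081 and 0.058 in sh-JMJD1B and 0.03 and 0.029 in sh-CTL, so it was detected in both controls and in 0 of 3 knockdown arrays. The deposited signals overlapped, at 166.1, 161.1 and 163.9 in sh-JMJD1B and 161.5 and 164.6 in sh-CTL. The fitted difference was -0.08 ± 0.06 with an adjusted p of 0.46 in limma, and 0.01 without normalization, so no direction is given.

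Complex II, succinate dehydrogenase, is also an enzyme of the citric acid cycle and has no subunit in mitochondrial DNA. Of its subunits, 3 were measured and none was called in limma, with 0 at an unadjusted p under 0.05, against 24.0% of all genes. SDHA, the flavoprotein that oxidizes succinate, gave 0.05 ± 0.06 and 0.15 ± 0.10 on its 2 probes. SDHC, a membrane anchor, gave 0.14 ± 0.09 and -0.04 ± 0.06. SDHD, the other anchor, read 11.77, 11.74 and 11.79 in sh-JMJD1B and 11.86 and 11.83 in sh-CTL, at -0.07 ± 0.06. The SDHD groups did not overlap, but its adjusted p was 0.51 in limma.

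SDHAP2, a transcribed pseudogene copy of SDHA, fell. Deposited signals were 1497, 1466 and 1400 in sh-JMJD1B and 1841 and 1756 in sh-CTL. The normalized levels were 10.46, 10.55 and 10.49 against 10.93 and 10.81. Every knockdown array was below both controls. The difference was -0.37 ± 0.06, or 1.29-fold lower, with an adjusted p of 0.010 in limma, and it was called under 13 of 17 alternative settings. Without sh-CTL replicate 1 it was -0.31 with an adjusted p of 0.079, and the call was lost.

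The other SDHA pseudogenes had differences of both signs, and none was called. SDHAP3 read 8.0, 7.76 and 7.90 against 8.14 and 8.04, with no overlap, at -0.21 ± 0.08 and an adjusted p of 0.15 in limma. SDHAP4 gave 0.05 ± 0.07. SDHAP1 had 6 probes with differences from -0.22 to 0.12, and on its brightest the controls themselves were 12.81 and 13.18. The copies share sequence with SDHA, so which transcript a probe reads is uncertain.

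Complex III, the cytochrome bc1 complex, had 9 measured subunits, with differences of -0.02 to 0.11 and a median of 0.04. None was called in limma, with 0 at an unadjusted p under 0.05 against 24.0% of all genes, and 8 were positive. UQCRC1, a core subunit, read 11.39, 11.53 and 11.39 in sh-JMJD1B and 11.45 and 11.20 in sh-CTL, with overlapping groups at 0.11 ± 0.08. UQCRC2, its core partner, gave -0.02 ± 0.06. CYC1, the cytochrome c1 that hands electrons to cytochrome c, gave 0.04 ± 0.06. UQCRB was at 0.01 ± 0.07 and -0.03 ± 0.06 on its 2 probes.

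UQCRH, the hinge subunit, had probes that differed in direction. One gave 0.11 ± 0.06 and the other -0.15 ± 0.09, with adjusted p of 0.34 and 0.37 in limma. Its retrocopy relative UQCRHL was at 0.01 ± 0.06. The UQCRHL probe had a mean signal of 42500, against 11500 and 6870 on the UQCRH probes, and which transcript it reads is uncertain. The pseudogene UQCRBP1 read 11.10, 11.02 and 11.15 against 10.75 and 10.99, without overlap but with the controls 0.24 apart. It gave 0.22 ± 0.08 and an adjusted p of 0.15 in limma. Its mean signal was 2050, against 506 on the brighter UQCRB probe, and which transcript it reads is uncertain.

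Complex IV, cytochrome c oxidase, had 11 measured subunits, between -0.16 and 0.17 with a median of 0.03. None was called in limma, with 1 higher and 1 lower at an unadjusted p under 0.05. Each is 9.09% of the 11, against 10.1% of all genes higher and 13.9% lower. COX7B read 13.12, 13.09 and 13.23 in sh-JMJD1B and 12.94 and 13.03 in sh-CTL. The groups did not overlap, and the difference of 0.17 ± 0.07 had an adjusted p of 0.18 in limma. Its paralogue COX7B2, known mainly from testis, read 10.67, 10.79 and 10.78 against 10.82 and 11. Those groups did not overlap in the opposite direction, at -0.16 ± 0.07 with an adjusted p of 0.22 in limma. The value rested on the controls, being -0.25 without sh-CTL replicate 1 and -0.07 without sh-CTL replicate 2. COX7B and COX7B2 thus had differences of opposite sign, and the contrast between them was not tested.

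COX7C and COX8A, small subunits of the holoenzyme, both gave 0.12, with standard errors of 0.06 and 0.07. COX5A, which joins COX4 early in assembly, read 14.77, 14.69 and 14.77 against 14.83 and 14.83, at -0.08 ± 0.06. Other isoform-bearing subunits were close to 0. COX4I1, the ubiquitous form of subunit 4, gave 0.03 ± 0.06, COX6A1 gave 0.00 ± 0.06 and COX6B1 gave -0.00 ± 0.06. COX7A2 gave 0.07 ± 0.06, and COX7A2L, which helps join complexes III and IV, gave -0.01 ± 0.06.

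Complex V, the ATP synthase, had 16 measured subunits, between -0.10 and 0.26 with a median of 0.04, and 1 was called higher. That is 6.25% of the 16, on a count of 1, against 2.56% of all genes. In the catalytic head, ATP5F1B, the beta subunit that makes ATP, read 15.47, 15.50 and 15.55 in sh-JMJD1B and 15.39 and 15.42 in sh-CTL. It did not overlap, at 0.10 ± 0.06 with an adjusted p of 0.36 in limma. ATP5F1A, the alpha subunit, gave -0.07 ± 0.08 and 0.07 ± 0.06 on its 2 probes. In the central stalk, which turns inside the head, ATP5F1C (gamma) gave 0.09 and ATP5F1E (epsilon) -0.07. ATP5F1D (delta) gave -0.04 on its brighter probe and 0.02 on its other.

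The peripheral stalk, which keeps the head from turning, had a median of -0.02 over 4 genes. ATP5PB, its b subunit, read 13.68, 13.69 and 13.65 against 13.55 and 13.50 on the brighter probe, at 0.15 ± 0.06 with an adjusted p of 0.17 in limma. That probe did not overlap, while the other gave 0.04 ± 0.06. ATP5PD, the d subunit, read 14.33, 14.32 and 14.34 against 14.44 and 14.42, all below the controls, at -0.10 ± 0.06 with an adjusted p of 0.34 in limma. Its other probe gave -0.08 ± 0.06. The brighter probe's difference stayed negative with median scaling (-0.03) and cyclic loess (-0.05). It was 0.02 without normalization, where the median of all genes was 0.06. ATP5PO (OSCP) gave -0.01 and ATP5PF (F6) -0.03 on their representing probes. Among membrane part subunits ATP5MF was highest, at 0.11 ± 0.06 and 0.06 ± 0.06. The inhibitor ATP5IF1, which blocks ATP hydrolysis when the proton gradient falls, gave 0.01 ± 0.06 and 0.03 ± 0.06. The epsilon pseudogene ATP5F1EP2 gave 0.04 ± 0.06 and -0.04 ± 0.06. Its probes had mean signals of 35400 and 23300, against 943 for the ATP5F1E probe. Which transcript the probes of this pair read is uncertain.

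The c-ring is the rotor that protons turn, and 3 nuclear genes encode the same mature c subunit with different import sequences. ATP5MC1 had deposited signals of 4880, 4441 and 4337 in sh-JMJD1B and 3359 and 3822 in sh-CTL on its brighter probe. The normalized levels were 12.15, 12.14 and 12.09 against 11.80 and 11.93. All knockdown arrays were above both controls, and the controls were farther apart than the knockdown arrays.

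ATP5MC1 rose by 0.26 ± 0.06 on this probe, or 1.20-fold, with an adjusted p of 0.045 in limma, just under the threshold. The call was made under 7 of 17 alternative settings and was lost when any 1 of the 5 arrays was left out, with differences then of 0.19 to 0.32 and adjusted p of 0.069 to 0.22. The gene's other probe, dim at signals of 204.5 to 226.4, read 7.79, 7.91 and 7.88 against 7.93 and 7.83. Its groups overlapped, at -0.02 ± 0.06 with an adjusted p of 0.88 in limma. ATP5MC2 gave 0.05 ± 0.06 and ATP5MC3 0.08 ± 0.07, both with overlapping groups and adjusted p of 0.70 and 0.57 in limma.

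**Figure D2:**
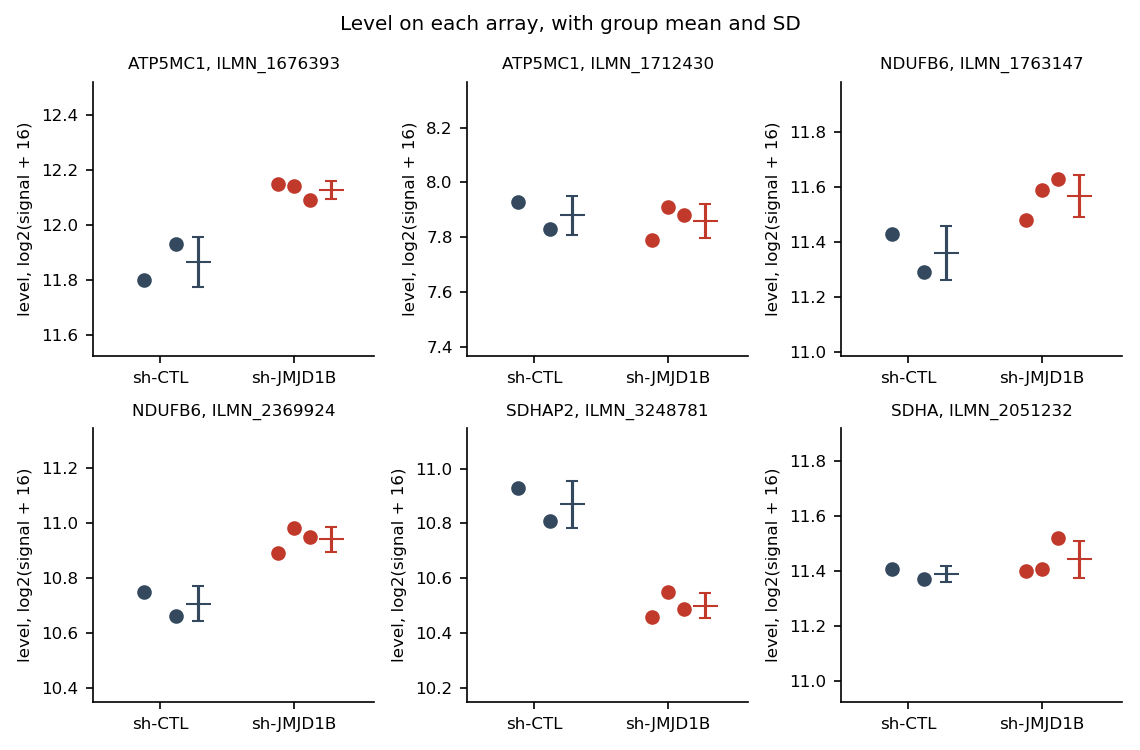
Log2 level of selected members on each array after quantile normalization, with 1 point per array and the group mean ± SD beside it. Panels show 2 probes each of ATP5MC1 and NDUFB6, and 1 each of SDHAP2 and SDHA. The sh-JMJD1B points lie above both controls for the brighter ATP5MC1 probe and both NDUFB6 probes, and below both for SDHAP2.

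Several probes were kept for 21 member genes, which allowed the direction to be compared within a gene. In 11 genes all probes had the same sign and in 10 they did not. The gap between probes of opposite sign exceeded 0.2 in 3 genes, SDHAP1 at 0.34, ATP5MC1 at 0.28 and UQCRH at 0.27. Probes agreed closely for NDUFB6, with a gap of 0.02, NDUFB3 at 0.01 and NDUFA10 at 0.00. NDUFB3, an accessory membrane arm subunit, gave 0.13 ± 0.07 and 0.12 ± 0.06.

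The small positive median of the members was not equally present on the knockdown arrays. Against the mean of the controls, the median member level was 0.006 on sh-JMJD1B replicate 1, 0.049 on replicate 2 and 0.062 on replicate 3. The 2 controls were at -0.005 and 0.005, and all genes were at -0.014, -0.008 and -0.010 on the knockdown arrays. In the deposited values without normalization the member medians were 0.179, 0.088 and 0.097, while those of all genes were 0.126, 0.039 and 0.025. On every knockdown array, on either scale, the median of the members was above that of all genes. The median is a description of these arrays, with no test.

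**Figure D3:**
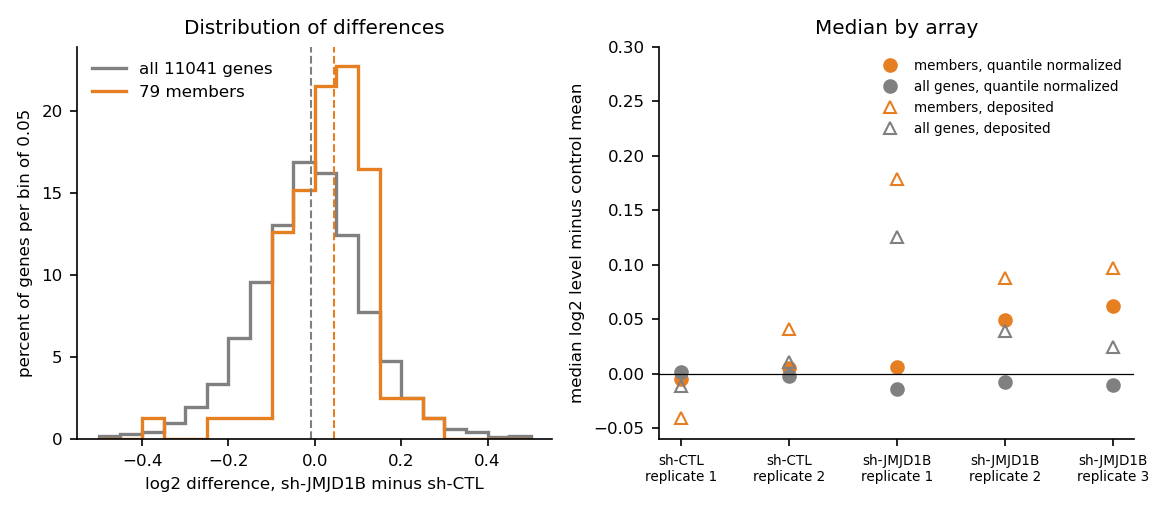
Left, the percent of genes per bin of log2 difference for the 79 members and for all 11041 genes, with dashed lines at the medians of 0.04 and -0.01. Right, the median log2 level minus the control mean on each array, for members and all genes, after quantile normalization (filled) and as deposited (open).

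Genes that build and supply the respiratory chain were counted beside its subunits. Of 107 measured genes in 10 lists, 0 rose and 4 fell at an adjusted p under 0.05 in limma, with 6 higher and 14 lower at an unadjusted p under 0.05. These are 5.61% and 13.1%, against 10.1% and 13.9% of all genes. Their median was -0.03, and 44 had a positive difference, or 41.1% against 46.8%. The 4 are 3.74% of the lists, close to the 3.7% of all genes called lower. They belong to complex I assembly (1 of 17), complex IV assembly (1 of 22) and the upkeep of mitochondrial DNA (2 of 12).

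TWNK, the helicase of mitochondrial DNA replication, read 8.42, 8.52 and 8.48 in sh-JMJD1B and 8.89 and 8.83 in sh-CTL. POLG, the catalytic subunit of the mitochondrial DNA polymerase, read 9.62, 9.57 and 9.61 against 9.89 and 9.93. Both genes were lower on every knockdown array than on either control. TWNK fell by 0.38 ± 0.06 and POLG fell by 0.31 ± 0.06, with adjusted p of 0.0072 and 0.016 in limma.

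NDUFAF1, an early assembly factor of complex I, read 9.55, 9.47 and 9.60 against 9.83 and 9.88. SCO2, which helps deliver copper to complex IV, read 9.47, 9.35 and 9.46 against 9.72 and 9.71. Neither gene's groups overlapped. NDUFAF1 fell by 0.32 ± 0.06 and SCO2 fell by 0.29 ± 0.06, with adjusted p of 0.021 and 0.029 in limma. When each array was left out in turn, the call was kept in 4 of 5 fits for TWNK, 2 for POLG, 1 for NDUFAF1 and 0 for SCO2.

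In the other lists no gene was called. Of the carriers and porins, SLC25A4, the heart and muscle form of the ADP/ATP carrier, gave -0.21 ± 0.06 with an adjusted p of 0.070 in limma on its brighter probe and 0.04 ± 0.07 on its other. VDAC1, a porin of the outer membrane, gave -0.07 ± 0.07. Of the nuclear regulators, the coactivator PPRC1 gave -0.21 ± 0.06 with an adjusted p of 0.094 in limma, and YY1 gave 0.13 ± 0.06 and -0.02 ± 0.09. Of the citric acid cycle genes, SUCLG2 gave 0.15 ± 0.06 and IDH3A -0.17 ± 0.07.

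Assembly of complexes II, III and V and the coenzyme Q and cytochrome c genes held no call on the representing probe. For complex II, SDHAF2 gave -0.17, and SDHAF1 gave -0.12, 0.12 and -0.03 on its 3 probes. For complex III, TTC19 gave -0.10, and LYRM7 gave -0.10 and 0.02. COQ8A gave -0.14, and HCCS gave -0.13 and -0.07. For complex V, TMEM70 gave 0.15 and -0.15 on its 2 probes. ATPAF1, a factor that helps assemble the catalytic head, gave -0.16 ± 0.06 on its brighter probe. Its dimmer probe read 8.41, 8.48 and 8.49 against 8.76 and 8.77, at -0.31 ± 0.06 with an adjusted p of 0.018 in limma. The 13 genes of mitochondrial DNA had no kept probe and were not analysed here.

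**Figure D4:**
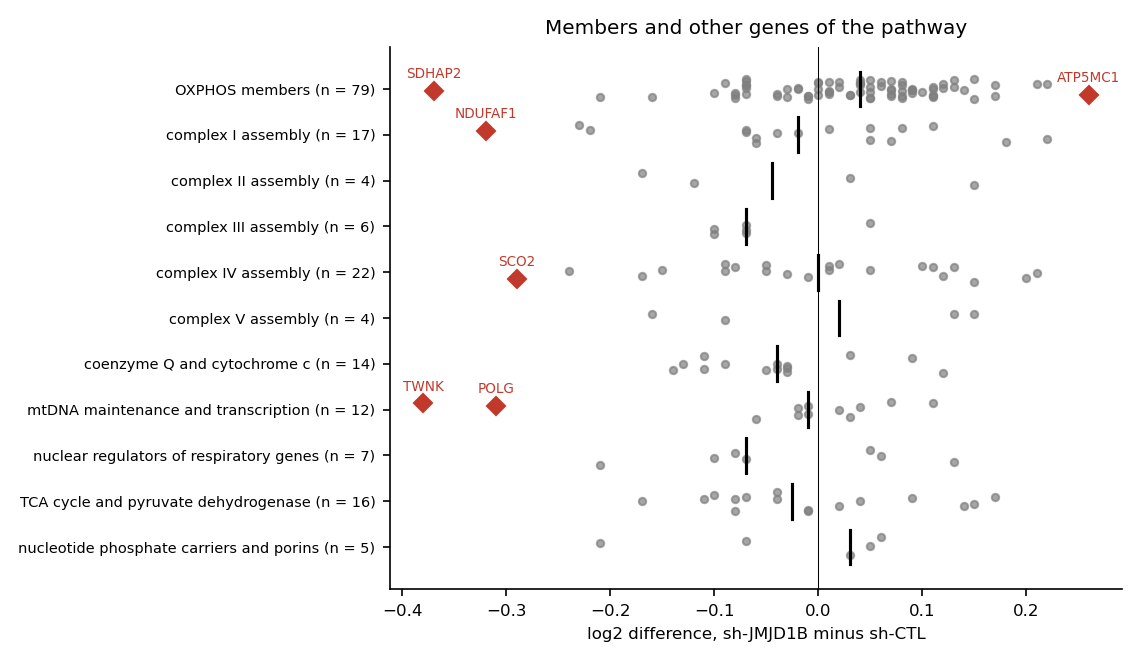
Log2 difference (sh-JMJD1B minus sh-CTL) of each measured gene in the member set and in the related lists, with the median of each list. The called genes are ATP5MC1 above 0, and SDHAP2, NDUFAF1, SCO2, POLG and TWNK below it.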

How the data were processed

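Total RNA of 5 K562 samples was measured on Illumina bead arrays. Per the submitters' processing notes, GenomeStudio 2009.2 was used. The authors deposited signal intensity values per probe, with a detection p-value beside each in a larger table whose 5 array columns carry no sample name. No label or header states how the authors corrected or normalized them. Array medians differed and the lowest signal was 109.6, so the values were treated as linear, unnormalized and not background-corrected.

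In the labelled table, identifiers are misordered: 47 of 19144 labelled probes carried their own. Each was tied to the probe of the larger table (47321 probes) with the same 5 signals, and all 19144 matched exactly 1. That table served only as a key and for detection p and the pooled background. Platform annotation gave 1 symbol to 14581 probes, several to 2 and none to 4561. Probes with detection p under 0.05 on 2 or more arrays were kept (19105).

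Values were log2(signal + 16), quantile normalized between arrays, and fitted by group with limma 3.58.1 in R 4.3.3 over all kept probes, with Benjamini-Hochberg adjustment over all of them. A gene is represented by its brightest kept probe. The number of arrays limits the precision (median standard error 0.0657). The fitting code was tried on simulated data with shifts larger than any member difference, and no result here rests on that trial. The alternatives were other normalizations, offsets, background corrections, filters, variance models, probe choices and memberships, a replicate block and leaving out each array.

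Genes named in the text are those past the threshold, the 3 highest and 3 lowest of each complex (1 each for complex II), isoform sets, genes whose probes differ in sign by over 0.2, genes undetected in a group and entries that are not subunits, and of the other lists those past the threshold or else the 2 with the smallest p. NDUFB3, SDHA, SDHD, CYC1, the core subunits of complex I, the stalk subunits, ATP5F1B and the dimmer probe of ATPAF1 were added after their values were seen. The members and lists were chosen with earlier results of these data known. Current symbols and promoter windows come from RefSeq tables (GRCh38.p14), and the 9-letter NRF1 motif was chosen after a longer form had been searched. JMJD1B itself is not analysed here.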

Additional observations from a re-analysis of the deposited data

How the results depend on the processing

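With 3 arrays against 2, each count below rests on few genes and no setting turned the direction of ATP5MC1 or SDHAP2 on the probe that was called. The count of member probes higher was 1 and became 2 with median scaling, an offset of 50 or a trended robust variance, 3 without normalization, and 0 with an offset of 1, pooled background subtracted, normexp or array weights. For member genes higher it was 1 and became 2 without normalization and 0 with an offset of 1, pooled background subtracted, normexp, array weights, the next brightest probe or the mean of a gene's probes. Member probes lower and member genes lower were 1 each and became 0 with pooled background subtracted or normexp, and member genes lower also became 0 among subunit genes only. Pooled background subtraction left 90 probes higher and 47 lower over the whole array, and normexp 95 and 52, against 449 and 519. Without normalization the split was 791 and 153, with the median of all probes at 0.07. The member median of 0.04 became 0.07 with median scaling (all genes 0.01) and 0.13 without normalization (all genes 0.06). In the other lists, the 4 lower became 1 without normalization and 0 with pooled background subtracted or normexp, and the 0 higher became 3 without normalization and 1 with a trended robust variance. The settings for these lists were chosen after seeing the data. Of the 12 named members with a negative difference, 6 turned positive without normalization: ATP5F1A 0.05, ATP5PD 0.02, COX7A2L 0.09, NDUFB1 0.01, NDUFB5 0.02 and UQCRC2 0.07. UQCRC2 (0.01) and COX7A2L (0.03) also did with median scaling, and COX7A2L (0.01) with cyclic loess. The cause of these moves was not tested.

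When each array was left out, members higher were 0 throughout, members lower 0 to 1, the other lists' lower 0 to 3, and all probes 176 to 239 higher and 129 to 216 lower. The 0 in members lower came without sh-CTL replicate 1. With 1 control left, its spread is assumed to be that of the other group. The replicate block gave 0 higher and 0 lower members, a median of 0.03 and 1 lower gene in the other lists, with 194 probes higher and 145 lower in all. Correlations of same-numbered deviations were -0.219 and -0.0908, and those with the other control 0.219 and 0.0908. With 2 controls the deviations mirror each other, so these values cannot show whether the numbers mark pairs. The numbers were not read as pairs because the labels do not say that they mark a shared batch.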
